A study of Mus musculus with 35 samples.

Results

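The genes described here are the orexin and melanin-concentrating hormone (MCH) genes of the lateral hypothalamus: the peptide precursors Hcrt, Pmch and Qrfp and the receptors Hcrtr1, Hcrtr2 and Mchr1. They were taken by gene name and make up 6 of the 49568 gene names in the count tables. All 6 were counted in every one of 35 libraries, and all 6 passed the filter on low counts, which left 18063 genes to test.

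Per the labels, polyA RNA was sequenced from the hypothalamus of male mice of strain B6/J, all collected at Zeitgeber time 16, that is 16 h after lights-on, with 1 library per labelled sample. Control mice had free access to food (n = 10) or had been fasted for 16 h from lights-on (n = 10). Mice with PER2-S662D, a mutant of PER2 (a repressor in the circadian clock), had food (n = 5) or were fasted for 16 h (n = 5), and mice labelled Per2 ko were fasted for 16 h (n = 5), with no fed group analysed here. How the S662D and knockout alleles were made, the age of the mice and whether samples came from separate litters are not given in the sources used here, so a p-value measures only the spread between these samples.

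Hcrt encodes the precursor of the orexins (hypocretins), peptides made by neurons of the lateral hypothalamus that promote wakefulness, food seeking and arousal. Pmch encodes the precursor of MCH, made by a neighbouring and largely separate set of neurons that are tied to feeding, energy storage and REM sleep. Orexins act on the G protein-coupled receptors encoded by Hcrtr1 and Hcrtr2, MCH in mice acts on that encoded by Mchr1, and Qrfp encodes a further appetite-promoting peptide with its own receptor, encoded by Qrfpr.

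Total counts ran from 17959586 to 37027342 per library, and mitochondrial genes took 6.24% to 9.08% of them. Per2 was counted at 28.2 ± 1.87 CPM in fed controls (SD, n = 10; CPM, counts per 1000000 counts of the scaled library) and 29.0 ± 2.45 in fasted controls (SD, n = 10). It was at 30.3 ± 2.00 CPM in the libraries labelled Per2 knockout (SD, n = 5), so the gene's count was not lower there and any direction drawn from these libraries rests on the label. In S662D mice Per2 was at 18.7 ± 1.98 CPM fed and 19.9 ± 2.38 fasted (SD, n = 5 each). The file headers place the libraries in sets by library number: controls 1 to 5, controls 6 to 10, the labelled knockout and S662D have ranges of their own, and S662D replicates 2, 3 and 4 of each feeding state carry an additional final digit whose meaning is not stated. Markers of the hypothalamus were present in every group, with a summed level of 36.8 to 57.4 CPM per library for 6 arcuate and ventromedial genes and 62.3 to 80.4 CPM for 8 posterior genes. A list of 6 thalamus genes summed to 865 to 1133 CPM and one of 4 choroid plexus genes to 18.2 to 1529.8 CPM. In bulk tissue, fewer cells of a type and less RNA per cell cannot be told apart.

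Levels differed widely between the peptide and receptor genes. Per kilobase of exon, the mean level over the 35 libraries was 137.6 CPM/kb for Pmch and 130.9 CPM/kb for Hcrt, ranks 273 and 289 of 18063 genes. Mchr1 followed at 4.41, Hcrtr1 at 3.01, Hcrtr2 at 1.21 and Qrfp at 0.442 CPM/kb. In every one of the 35 libraries Hcrt lay above Mchr1, Hcrtr1 above Hcrtr2 and Hcrtr2 above Qrfp. Mchr1 lay above Hcrtr1 in 34 of 35 libraries, whereas Pmch lay above Hcrt in 23 of 35, so the order of the 2 precursors did not hold across libraries. The ratio of Hcrt to Pmch was 0.959 ± 0.112 (SD, n = 35) and ranged from 0.736 to 1.31. Pmch fragments may be missing from its count, as given next, so its rank, its order with Hcrt and this ratio are uncertain.

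Hcrt lies at chr11:100761069-100762931 on the minus strand of mm10, with 3 exons and 749 exon bases, none of them shared with another gene. Pmch lies at chr10:88091072-88092375 on the plus strand, also with 3 exons and 749 exon bases. Of these, 435 bases (58.1%) lie within exons of Parpbp, a DNA repair gene on the opposite strand. The headers show counting without a strand option and no option to count fragments that touch 2 genes, so Pmch fragments in the shared part may be missing from its count and its level per kilobase is uncertain. Parpbp itself was at 0.465 to 0.680 CPM as group means, against 84.5 to 116.2 CPM for Pmch. The other 4 genes share no exon base with another gene: Hcrtr1 at chr4:130130217-130139359 (minus), Hcrtr2 at chr9:76225880-76323856 (minus), Mchr1 at chr15:81235499-81238963 (plus) and Qrfp at chr2:31806166-31810580 (minus).

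The sequences upstream of the 2 precursor genes are shown because these genes varied together across libraries, as given further on. They are the 250 bases before the transcription start from RefSeq (GRCm38.p6), written 5′ to 3′ on the gene's strand, chr11:100762932-100763181 for Hcrt and chr10:88090822-88091071 for Pmch, from a table with 8 such windows for the 6 genes, 3 of them for Hcrtr1. Capitals mark matches to TATAAA and, in Pmch, a match to TGACTCA read on the other strand.
Hcrt: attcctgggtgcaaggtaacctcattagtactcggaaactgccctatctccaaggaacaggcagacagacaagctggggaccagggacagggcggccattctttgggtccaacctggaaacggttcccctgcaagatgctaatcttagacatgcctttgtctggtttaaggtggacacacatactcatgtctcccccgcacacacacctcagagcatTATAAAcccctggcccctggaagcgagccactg
Pmch: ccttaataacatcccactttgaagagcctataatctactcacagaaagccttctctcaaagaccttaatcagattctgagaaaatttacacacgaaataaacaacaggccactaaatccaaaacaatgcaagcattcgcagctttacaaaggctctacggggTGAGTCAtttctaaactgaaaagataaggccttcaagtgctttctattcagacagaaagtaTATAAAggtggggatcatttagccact
Both windows hold TATAAA, the core of the TATA box, starting 33 bases before the start of Hcrt and 27 bases before that of Pmch, and 12.4% of the 32841 RefSeq promoter windows of the same length hold it on either strand. TGACTCA, the letters known as an AP-1 site, was present in the Pmch window and in 4.46% of all windows. The E-box CACGTG, bound by the clock's activators, was matched in the Mchr1 window alone among the 8 and in 6.02% of all windows. AGGTCA, the half-site of many nuclear receptors, was matched in 1 of the 3 windows of Hcrtr1, in that of Hcrtr2 and in 14.0% of all windows. TTATGCAA, TGTTTAC and TGACGTCA, searched on both strands as well, were matched in none of the 8 windows. The Hcrt window is 53.6% G and C and the Pmch window 38.4%, against a median of 52.4% over all windows.

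**Figure D1:**
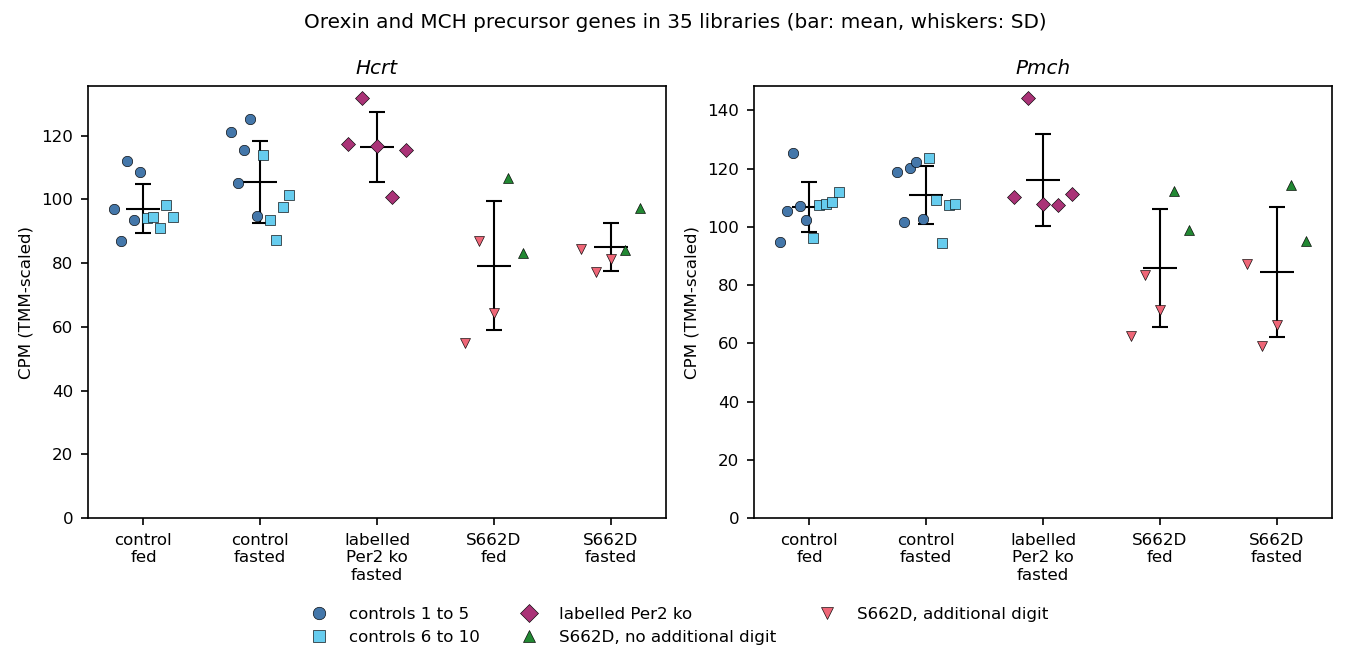
Level of Hcrt (left) and Pmch (right) in each of the 35 libraries, in CPM on TMM-scaled libraries (y axis, linear, from 0), by group (x axis), with the group mean as a bar and the SD as whiskers. Symbols give the library sets: S662D libraries with the additional digit (triangles pointing down) lie lowest for Pmch, at 59.0 to 87.2 CPM, and S662D libraries without it at 95.1 to 114.5 CPM lie among the controls.

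Neither precursor was called with fasting in control mice. In control mice Hcrt ran from 87.0 to 112.0 CPM with a median of 94.6 when fed, and from 87.3 to 125.2 with a median of 103.3 after 16 h of fasting. A total of 4 of 10 fasted controls lay above every fed control, and the ranges overlapped. The log2 fold change was 0.12 (SE 0.083, 95% interval -0.05 to 0.29, edgeR adjusted p = 0.614). Pmch ran from 94.98 to 125.5 CPM (median 107.4) in fed controls and from 94.4 to 123.5 (median 108.6) in fasted ones, a log2 fold change of 0.05 (95% interval -0.15 to 0.25, edgeR adjusted p = 0.910). The 2 ranges nearly coincided. None of the 6 genes was called in this comparison, in which 3.88% of all genes were called, where called means an adjusted p under 0.05 over all 18063 genes. At an unadjusted p under 0.05 there were 0 of the 6, against 13.3% of all genes. DESeq2 and limma-voom called 0 of the 6, against 820 and 669 of 18063 genes.

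In S662D mice neither precursor was called with fasting. Hcrt was at 106.6, 55.1, 86.9, 64.5 and 83.3 CPM in the 5 fed mice and at 84.3, 84.6, 77.2, 81.4 and 97.3 CPM in the 5 fasted ones. The fed mice were the more scattered group and enclosed the fasted ones (log2 fold change 0.11, 95% interval -0.13 to 0.35, edgeR adjusted p = 0.739). Pmch was at 112.4, 62.5, 83.6, 71.4 and 99.0 CPM in the fed mice and at 114.5, 87.2, 59.0, 66.5 and 95.1 CPM in the fasted ones. High and low libraries occurred in both feeding states (log2 fold change -0.01, 95% interval -0.30 to 0.27, edgeR adjusted p = 0.981). The S662D response minus the control response was -0.01 for Hcrt (95% interval -0.31 to 0.28) and -0.07 for Pmch (95% interval -0.41 to 0.28). None of the 6 genes was called for fasting in S662D mice, where 2.64% of all genes were (2 of the 6, Hcrtr1 and Hcrtr2, had an unadjusted p under 0.05, against 14.3% of all genes, and DESeq2 and limma-voom called 0), nor for the difference between the 2 responses, where 0% of all genes were called by edgeR and 6.37% had an unadjusted p under 0.05. For that difference 0 of the 6 genes had an unadjusted p under 0.05, and 0 were called by DESeq2 or limma-voom. Over all 18063 genes, these tools called 629 and 554 for fasting in S662D mice and 0 for the difference.

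Both precursors had lower mean levels in S662D than in control mice, short of the threshold. For Hcrt the means were 79.3 ± 20.2 CPM in fed S662D (SD, n = 5) and 97.1 ± 7.64 in fed controls (SD, n = 10), a log2 fold change of -0.30 (SE 0.10, edgeR adjusted p = 0.0836). A total of 4 of 5 fed S662D mice lay below every fed control. Fasted, the means were 85.0 ± 7.52 and 105.6 ± 12.8 CPM (log2 fold change -0.31, SE 0.10, edgeR adjusted p = 0.0660), again with 4 of 5 S662D mice below every control. For Pmch the means were 85.8 ± 20.3 against 106.8 ± 8.52 CPM fed (log2 fold change -0.32, SE 0.12, edgeR adjusted p = 0.118) and 84.5 ± 22.3 against 110.8 ± 9.90 CPM fasted (log2 fold change -0.39, SE 0.12, edgeR adjusted p = 0.0535). In each feeding state 3 of 5 S662D mice lay below every control for Pmch, and these were the 3 with the additional digit in the library number. Of the 6 genes 0 were called, against 4.69% of all genes in fed and 5.57% in fasted mice. At an unadjusted p under 0.05, Hcrt and Pmch were the 2 of 6 in each feeding state, against 21% of all genes fed and 20.8% fasted. Other tools gave some calls: with DESeq2 Hcrt had an adjusted p of 0.0285 fed and 0.0189 fasted, and Pmch 0.0212 fasted, while Pmch fed was not called. DESeq2 called 7.89% of all genes fed and 7.48% fasted. With limma-voom Hcrt was called fed (adjusted p = 0.0427) but not fasted and Pmch fasted (adjusted p = 0.0364) but not fed, against 5.3% and 5.31% of all genes.

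**Figure D2:**
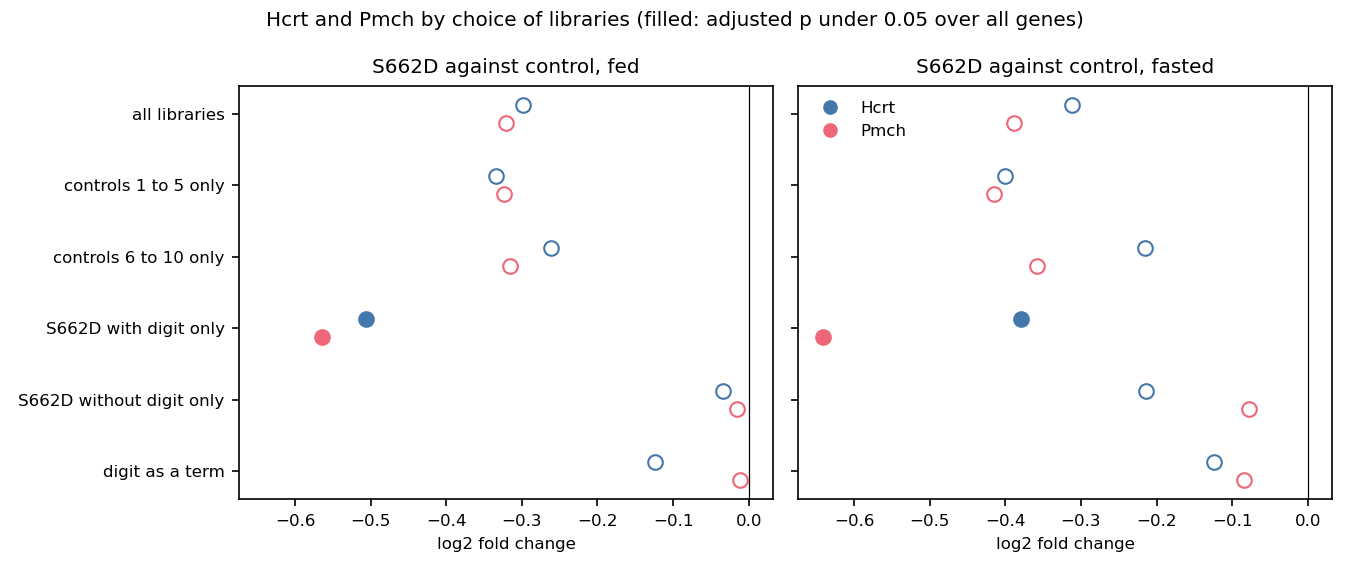
Fitted log2 fold change of S662D against control (x axis) for Hcrt and Pmch in fed (left) and fasted (right) mice, by which libraries or terms entered the fit (y axis), with filled points where the adjusted p lay under 0.05 over all genes. With all libraries the 4 values lie between -0.39 and -0.30, with S662D libraries carrying the additional digit they reach -0.64, and without those libraries they lie between -0.21 and -0.02.

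The S662D libraries with the additional digit held most of this difference for Pmch, and for Hcrt in fed mice. It did not hold for Hcrt in fasted mice. There Hcrt averaged 81.1 CPM with the digit (n = 3) and 90.8 CPM without it (n = 2), against 105.6 CPM in fasted controls. Pmch was at 71.7 ± 11.5 CPM in the 6 libraries with the digit (SD, both feeding states), at 105.3 ± 9.62 CPM in the 4 without it and at 108.8 ± 9.22 CPM in the 20 controls. The 6 libraries with the digit lay at 59.0 to 87.2 CPM, apart from those without it at 95.1 to 114.5 CPM, and the latter lay among the controls at 94.4 to 125.5 CPM. Hcrt was at 74.9 ± 12.5, 92.9 ± 11.2 and 101.3 ± 11.1 CPM in the same sets, with overlap between the first 2 sets. Qrfp was at 0.937 ± 0.128, 1.59 ± 0.400 and 1.32 ± 0.338 CPM.

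In a fit with the library sets as groups of their own, added after the values had been seen, S662D libraries with the digit were compared with those without it. Pmch fell by 0.56 on the log2 scale (SE 0.10, edgeR adjusted p = 0.000383), Hcrt by 0.32 (SE 0.10, edgeR adjusted p = 0.0300) and Qrfp by 0.74 (SE 0.23, edgeR adjusted p = 0.0216). Thus the 3 peptide precursors were called lower, and 6.53% of all genes were called lower in that comparison (16.7% in either direction). The 3 receptors were not called, with log2 fold changes of -0.03 for Hcrtr1, 0.04 for Hcrtr2 and 0.00 for Mchr1 and 95% intervals within -0.26 and 0.25. Without the digit libraries, S662D against control was -0.03 for Hcrt and -0.02 for Pmch when fed and -0.21 and -0.08 when fasted, none called. Those fits held 2 S662D libraries per feeding state and called 16 of 18746 genes fed and 21 fasted, so a missing call there says little. With the digit libraries alone, both genes were called in both feeding states: Hcrt at -0.51 fed and -0.38 fasted, and Pmch at -0.56 fed and -0.64 fasted (edgeR adjusted p = 0.0013, 0.0119, 0.000311 and 5.56e-05). In these fits 16.9% of all genes were called fed and 17.1% fasted.

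Selected values are given here by set, and not all of them differed between libraries with and without the digit. Their part in the result was not tested. A list of 4 endothelial genes (Cldn5, Flt1, Pecam1, Slco1a4) was summed in each feeding state. Fed S662D libraries were at 179.5 to 188.3 CPM with the digit and 159.4 to 160.9 without it, against 145.5 to 175.9 in fed controls. Fasted S662D libraries were at 156.2 to 192.0 and 137.5 to 160.0 CPM, against 127.1 to 150.7 in fasted controls. The thalamus list summed to 946 to 1133 CPM with the digit, 913 to 951 without it and 889 to 1044 in controls when fed. Fasted, it was at 1031 to 1105 CPM with the digit, 976 to 1011 without it and 886 to 1025 in controls. The 8 posterior hypothalamic genes, which come from tissue close to the orexin and MCH neurons, summed to 63.8 to 72.8 CPM with the digit, 62.8 to 78.2 without it and 62.3 to 80.4 in controls. In fed S662D mice alone it was at 63.8 to 66.1 CPM with the digit and 70.0 to 78.2 without it, with no overlap, and in fasted ones at 64.9 to 72.8 and 62.8 to 70.0 CPM, with overlap. Hdc, a gene of that list, was at 15.9 to 19.2 CPM with the digit and 18.5 to 25.5 without it in fed S662D mice, and averaged 18.4 and 18.9 CPM in fasted ones. A list of 4 cortex genes averaged 157.3 CPM with the digit and 125.0 without it fed, and 164.1 and 133.6 fasted. Fed, the cortex sums ran from 126.7 to 173.3 CPM with the digit, 107.7 to 142.3 without it and 108.4 to 168.4 in controls, with overlap. Fasted, the cortex sums ran from 150.9 to 171.6, 131.6 to 135.5 and 104.1 to 163.1 CPM in the same order. The 8 peptide processing genes summed to 4037 to 4095 CPM in fed libraries with the digit and to 4229 to 4281 without it, against at least 4098 in fed controls. In fasted S662D mice this order did not hold, with sums of 4085 to 4660 CPM with the digit and 4343 to 4346 without it. Fed, a list of 4 microglia genes summed to 148.3 to 162.1 CPM with the digit and 142.7 to 145.6 without it. Fasted, its sums were 143.2 to 155.9 and 129.1 to 141.2 CPM. Controls were at 141.3 to 168.2 CPM fed and 115.9 to 164.9 fasted. The 10 genes of Qrfpr and G protein signalling summed to 1784 to 1834 CPM with the digit and 1658 to 1703 without it fed. Fasted, they were at 1749 to 1892 and 1665 to 1720 CPM. Controls were at 1648 to 1813 CPM fed and 1604 to 1758 fasted. Mitochondrial genes took 6.24% to 6.93% of counts with the digit and 6.54% to 8.27% without it. The 4 oligodendrocyte genes summed to 5961 to 6368 CPM with the digit and 6910 to 7156 without it fed. Fasted, their sums overlapped, at 6769 to 7503 and 7062 to 7621 CPM. Controls were at 5943 to 7984 CPM fed and 6268 to 7348 fasted. None of the genes on these lists was at 0 in every library.

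The libraries labelled Per2 knockout had the highest mean levels of both precursors among the 5 groups. Hcrt was at 117.5, 131.8, 116.7, 100.7 and 115.7 CPM and Pmch at 110.4, 144.1, 107.7, 107.5 and 111.2 CPM. Against fasted controls the log2 fold change was 0.14 for Hcrt (95% interval -0.06 to 0.35, edgeR adjusted p = 0.875) and 0.07 for Pmch (95% interval -0.18 to 0.31, edgeR adjusted p = 0.967), with overlapping ranges. Without labelled knockout replicate 2, at 144.1 CPM, the Pmch value was -0.02, so the highest mean of Pmch rested on that library. Of the 6 genes 0 were called, against 0.0277% of all genes. Only Hcrtr1, 1 of the 6, had an unadjusted p under 0.05 there, against 6.07% of all genes, and 0 were called by DESeq2 or limma-voom. These tools called 7 and 3 of 18063 genes.

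Against fasted S662D mice, Hcrt and Pmch were the 2 of 6 genes that were called, both higher in the libraries labelled knockout. For Hcrt the log2 fold change was 0.45 (SE 0.12, edgeR adjusted p = 0.0158, 36.9% higher), and all 5 labelled knockout libraries lay above all 5 S662D libraries. For Pmch it was 0.46 (SE 0.14, edgeR adjusted p = 0.0405, 37.2% higher), with 1 of the 5 above every S662D library. Over all genes, 7.34% were called in this comparison, 2.61% were called higher, and 4.92% had groups that did not overlap. The comparison uses the same S662D libraries as that with the controls. With the S662D libraries that lack the digit alone, neither gene was called (0.36 for Hcrt, edgeR adjusted p = 0.283, and 0.15 for Pmch, edgeR adjusted p = 0.694). That fit held 2 fasted S662D libraries and called 26 of 18746 genes, so a missing call there says little. The Hcrt call was lost without labelled knockout replicate 2 (adjusted p = 0.0599) or fasted S662D replicate 4 (adjusted p = 0.0515). The Pmch call held in 3 of the 10 fits that each left out 1 library. The 4 endothelial genes summed to 122.1 to 141.2 CPM in the labelled knockout libraries and to 137.5 to 192.0 CPM in fasted S662D mice, with 3 of 4 called lower (median log2 fold change -0.39). The 6 thalamus genes summed to 865 to 970.4 and 976 to 1105 CPM, with 2 of 6 called lower (median -0.26), and 5 pituitary genes to 2.01 to 3.11 and 0.232 to 3.39 CPM, with none of 3 tested called. Their part in the result was not tested.

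Qrfp was the least abundant of the 6, with 11 to 60 counts per library. It ran from 0.810 to 1.80 CPM in fed controls (median 1.40) and from 0.592 to 1.74 in fasted controls (median 1.35). It was at 0.965, 1.37, 1.47, 1.62 and 1.57 CPM in the labelled knockout libraries. In S662D mice it was at 1.92, 1.16, 0.773, 0.968 and 1.02 CPM fed and at 1.66, 0.889, 0.936, 0.897 and 1.78 CPM fasted. All groups overlapped. The intervals were wide at this depth: for fasting in controls the log2 fold change was 0.08 (95% interval -0.30 to 0.46), and for S662D against control it was -0.13 fed (95% interval -0.59 to 0.33) and -0.10 fasted (95% interval -0.55 to 0.34). Its receptor gene Qrfpr was at 2.90 to 3.30 CPM as group means and was not called in any comparison.

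**Figure D3:**
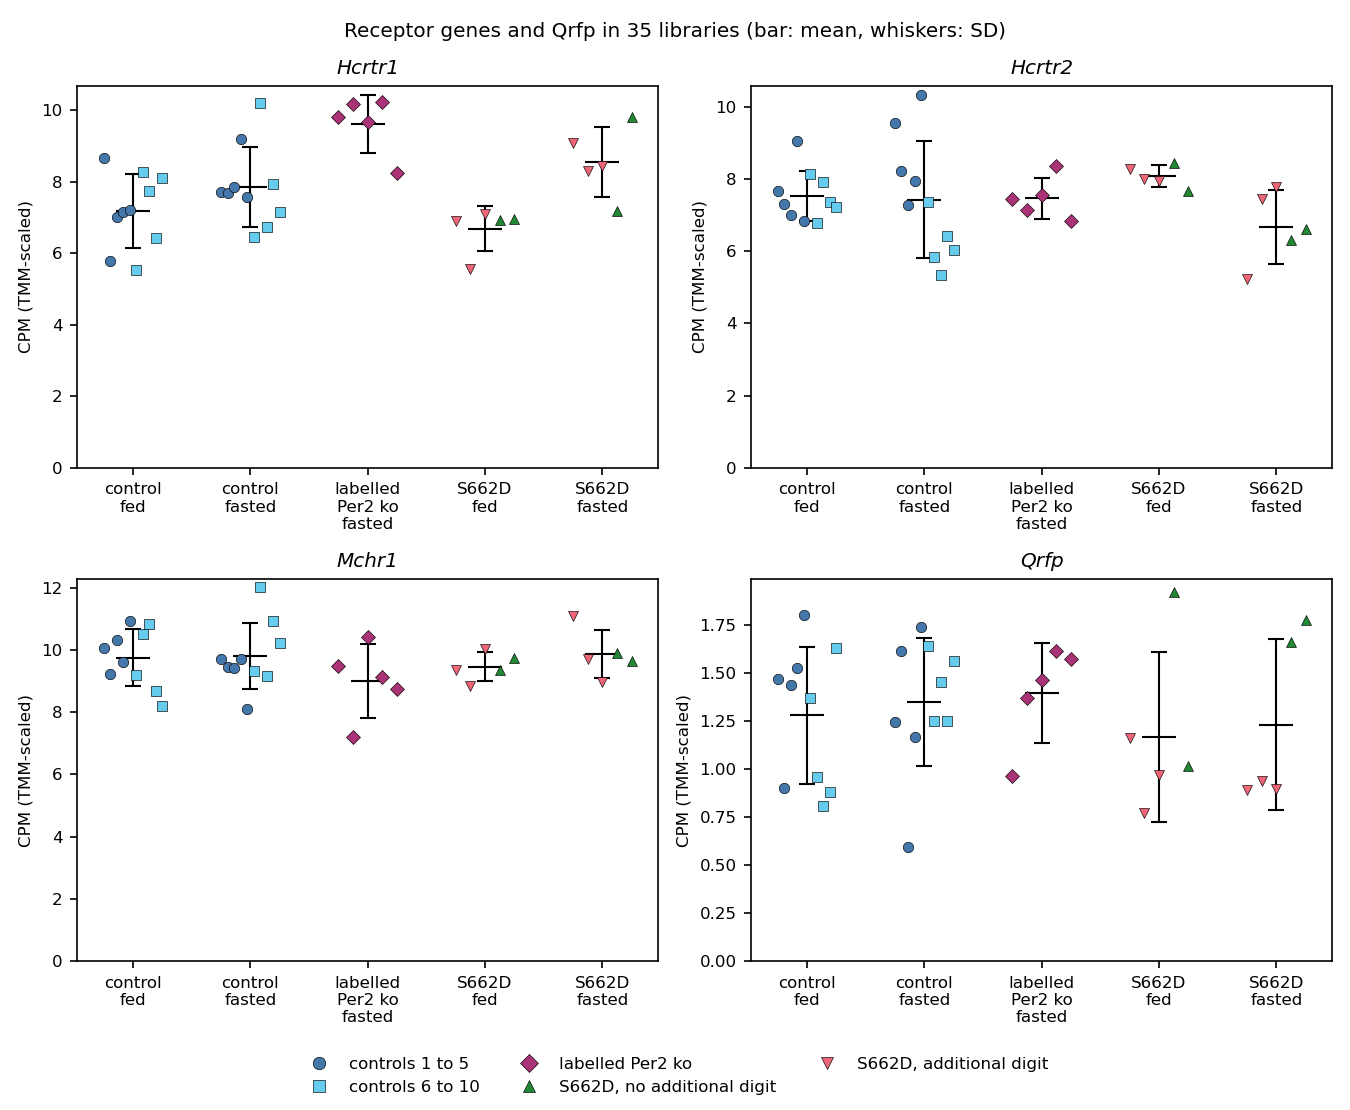
Level of Hcrtr1, Hcrtr2, Mchr1 and Qrfp in each of the 35 libraries, in CPM on TMM-scaled libraries (y axes, linear, from 0), by group (x axis), with the group mean as a bar and the SD as whiskers, and symbols for library sets. All 5 fasted S662D libraries lie above all 5 fed ones for Hcrtr1, and fasted controls 1 to 5 (circles) lie mostly above fasted controls 6 to 10 (squares) for Hcrtr2.

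Hcrtr1, the receptor selective for orexin A, had its largest difference with fasting in S662D mice. It was at 6.93, 6.91, 5.58, 7.10 and 6.96 CPM in fed S662D mice and at 7.18, 9.08, 8.29, 8.45 and 9.81 CPM in fasted ones. Every fasted library lay above every fed one, and 3.3% of all genes had groups that did not overlap, in either direction. The log2 fold change was 0.35 (SE 0.11, 95% interval 0.13 to 0.58) and did not pass the threshold (edgeR adjusted p = 0.0837), but did without fasted S662D replicate 1 (0.41, adjusted p = 0.0353). In controls Hcrtr1 ran from 5.54 to 8.66 CPM (median 7.18) fed and from 6.46 to 10.2 (median 7.70) fasted, with much overlap and a log2 fold change of 0.13 (95% interval -0.04 to 0.29). The S662D response exceeded the control response by 0.22 (95% interval -0.06 to 0.51, edgeR adjusted p = 0.808), so the 2 responses were not shown to differ.

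In the libraries labelled Per2 knockout, Hcrtr1 was at 9.81, 10.2, 9.67, 10.3 and 8.25 CPM. All 5 lay above the median of the fasted controls and 1 above their highest. The log2 fold change against fasted controls was 0.30 (SE 0.097, 95% interval 0.10 to 0.49, edgeR adjusted p = 0.668). Against fasted S662D mice it was 0.17 (95% interval -0.05 to 0.39), and S662D against control was -0.10 fed and 0.13 fasted, none of them called.

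Hcrtr2, the receptor that binds both orexins, showed no called difference, and its values depended on which controls were used. It ran from 6.77 to 9.06 CPM (median 7.34) in fed controls and from 5.34 to 10.3 (median 7.32) in fasted ones. In fed S662D mice it was at 8.45, 8.28, 8.01, 7.96 and 7.67 CPM, and in fasted ones at 6.30, 5.22, 7.45, 7.79 and 6.61 CPM. A total of 4 of 5 fasted S662D libraries lay below every fed one (log2 fold change -0.28, SE 0.12, edgeR adjusted p = 0.263). Fasted controls 1 to 5 were at 8.66 ± 1.246 CPM (SD, n = 5) and fasted controls 6 to 10 at 6.20 ± 0.759 (SD, n = 5). In the added fit by library set the former were higher by 0.48 on the log2 scale (SE 0.11, edgeR adjusted p = 0.00598), and Hcrtr2 was the 1 of the 6 genes called there, against 9.59% of all genes. Fed, the same 2 sets differed by 0.02 (95% interval -0.20 to 0.23), and 0 of the 6 genes were called, against 0.631% of all genes. Accordingly, S662D against control in fasted mice was -0.38 with controls 1 to 5 alone (edgeR adjusted p = 0.0211) and 0.10 with controls 6 to 10 alone (edgeR adjusted p = 0.664), and -0.16 with all. Over all genes, 1680 of 17775 were called with controls 1 to 5 alone and 48 of 17812 with controls 6 to 10 alone. Fasting in controls was 0.19 within the first set, -0.27 within the second and -0.02 with both, none called. In the labelled knockout libraries Hcrtr2 was at 7.45, 7.15, 7.55, 8.36 and 6.84 CPM, within the range of the fasted controls.

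The ratio of the 2 orexin receptors, per kilobase, followed these values. Hcrtr2 over Hcrtr1 was 0.453 ± 0.088 in fed and 0.407 ± 0.101 in fasted controls (SD, n = 10 each). It was 0.514 ± 0.056 in fed S662D mice, where the lowest library was at 0.466, and 0.334 ± 0.066 in fasted ones, where the highest was at 0.390 (SD, n = 5 each). In the labelled knockout libraries it was 0.329 ± 0.021 (SD, n = 5). These ratios are given without a test.

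Mchr1, the MCH receptor, had the smallest ratio between its highest and lowest group mean among the 6 genes. Group means were 9.76 ± 0.927 CPM in fed controls and 9.81 ± 1.07 in fasted controls (SD, n = 10 each), and 9.00 ± 1.19 in the labelled knockout libraries, 9.47 ± 0.454 in fed and 9.86 ± 0.772 in fasted S662D mice (SD, n = 5 each). All ranges overlapped. The log2 fold change was 0.01 for fasting in controls (95% interval -0.13 to 0.14), 0.06 for fasting in S662D mice (95% interval -0.13 to 0.24), and -0.04 and 0.01 for S662D against control fed and fasted. For the labelled knockout against control it was -0.13 (95% interval -0.29 to 0.04). Its biological coefficient of variation, the spread between libraries of a group beyond counting error, was 0.0807, at the 28.4 percentile of genes with a mean within 2-fold of its own. For Hcrt it was 0.127 (96.9 percentile) and for Pmch 0.150 (98.4 percentile), so over the 5 groups the 2 precursors varied more between libraries than most genes of their level. This fit has 1 mean per group, so differences between library sets count as spread. The SD of Pmch was 8.0% and 8.9% of the mean in fed and fasted controls, 13.5% in the labelled knockout, and 23.6% and 26.4% in fed and fasted S662D mice. For Hcrt these were 7.9%, 12.1%, 9.4%, 25.4% and 8.8%.

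**Figure D4:**
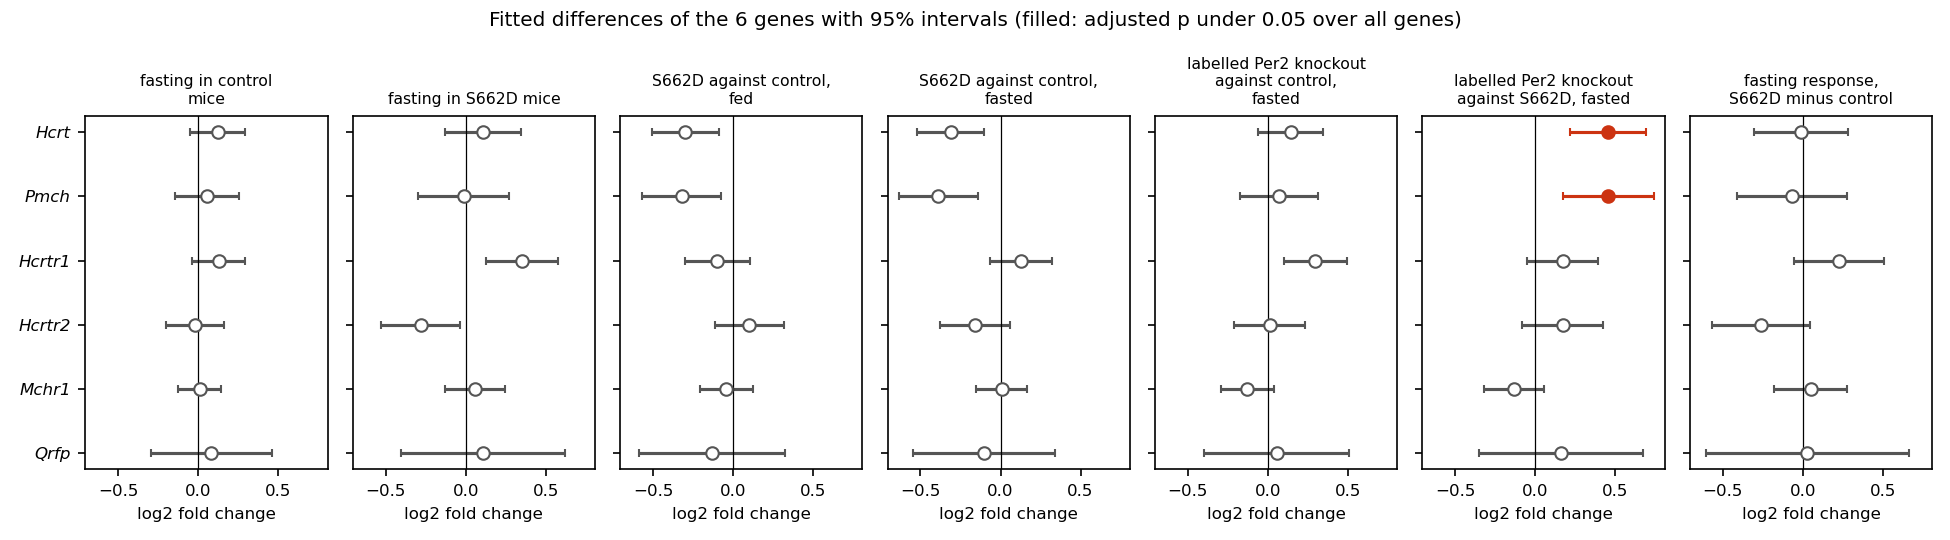
Fitted log2 fold change (x axes) with 95% intervals for the 6 genes (y axis) in 7 comparisons, 1 per panel, with filled red points where the adjusted p lay under 0.05 over all genes. The 2 filled points are Hcrt at 0.45 and Pmch at 0.46 in the labelled Per2 knockout against S662D, and the widest intervals are those of Qrfp.

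Hcrt and Pmch varied together between libraries of the same group. Taken as deviations of log2 CPM from the group mean over 35 libraries, they had a Pearson r of 0.72 and a Spearman rho of 0.677. Permutation within groups, two-sided and adjusted over the 15 pairs of the 6 genes, gave p = 0.00045 and p = 0.00225. Without the 2 libraries farthest from the median of Hcrt, r was 0.604. With deviations taken from the mean of each group and library set it was 0.657, and within sets it was 0.722 in the 6 S662D libraries with the digit, 0.675 in controls 1 to 5 and 0.780 in controls 6 to 10. None of the other 14 pairs passed the threshold. The next were Hcrtr2 with Mchr1 (r = -0.392, permutation adjusted p = 0.228) and Hcrtr1 with Mchr1 (r = 0.357, permutation adjusted p = 0.230). Neither receptor of orexin followed Hcrt (r = 0.045 for Hcrtr1 and 0.103 for Hcrtr2), and Mchr1 did not follow Pmch (r = -0.061).

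**Figure D5:**
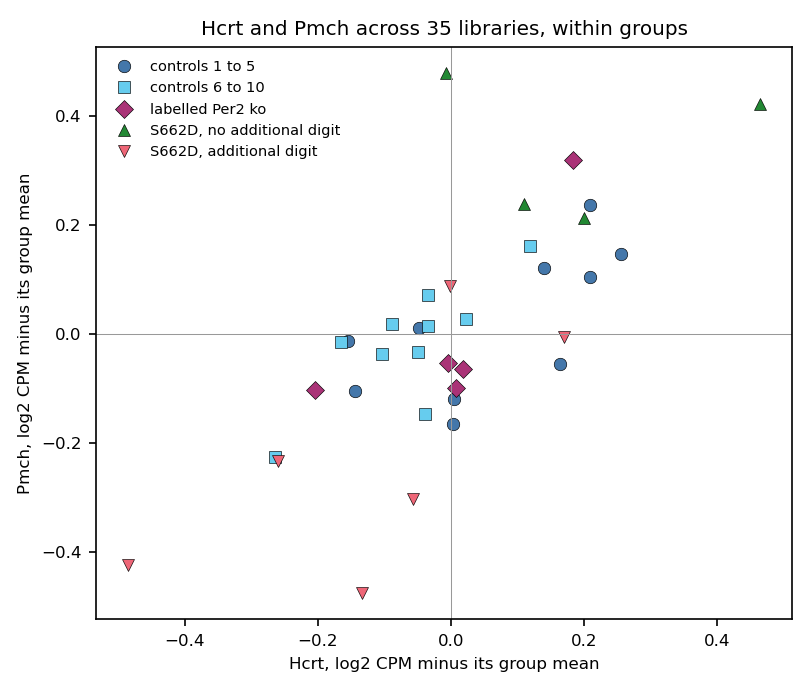
Deviation of log2 CPM from the group mean for Hcrt (x axis) and Pmch (y axis), 1 point per library, with symbols for library sets. Points run from lower left to upper right (r = 0.72, n = 35), and the 4 S662D libraries without the additional digit lie above the group mean for Pmch.

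Ranked by r over the same deviations, with 15478 genes whose mean level reached 1 CPM, the gene most like Hcrt was Hdc, histidine decarboxylase of the histamine neurons of the posterior hypothalamus (r = 0.75), followed by Pmch (0.72), Gmppa (0.64), Snhg1 (0.64) and Cpne7 (0.64). For Pmch the order was Rps6-ps4 (0.76), Hcrt (0.72), Dnajc8 (0.71), Chfr (0.70) and Eid1 (0.70). Within groups and library sets the r with Hcrt was 0.65 for Hdc and that with Pmch was 0.59 for Rps6-ps4, a ribosomal protein pseudogene whose count can hold reads of its parent gene. For Hcrtr1 they were Tpm3-rs7 (0.62), Espn, Lrrc29, Lnx1 and Tmem192 (0.59). For Hcrtr2 they were Fam210a (0.76), Tmx3, Cacul1 and Naa50 (0.70). For Mchr1 they were Supt5 (0.79), Svop, Foxp4, Cbr1 and Spryd3 (0.75), and for Qrfp Pstpip1 (0.66), Oat, Stra13, Cbx1 and Iqcg (0.62). These values are descriptions, since the genes were chosen for their r, and all of them come from the same 35 libraries, which differ in depth and in the sums of the marker lists.

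Other genes of these neurons and of peptide handling were taken from 6 lists (genes of orexin neurons, genes of MCH neurons, Qrfpr with G protein signalling, peptide processing, candidate regulators of Hcrt and Pmch, and other lateral hypothalamic peptides and receptors). They held 46 genes, of which 45 were tested and Dmbx1 was too low. With fasting in controls 3 were called higher and 2 lower, 11.1% of the 45 against 3.88% of all genes. Foxo1, a transcription factor held back by insulin signalling, rose by 0.34 on the log2 scale (edgeR adjusted p = 0.0031), Pcsk1, a convertase that cleaves prohormones, by 0.20 (adjusted p = 0.0239) and Scg2, a protein of secretory granules, by 0.14 (adjusted p = 0.0195). Gnai1 and Gnai2, subunits of inhibitory G proteins, fell by 0.12 and 0.11 (adjusted p = 0.0186 and 0.0306). The median of the 45 was 0.03, against 0.00 over all genes. For Foxo1, controls 1 to 5 alone gave 0.52 and controls 6 to 10 alone 0.16, where the call was lost (edgeR adjusted p = 0.447), and for Pcsk1 they gave 0.35 and 0.03. For Scg2 they gave 0.17 and 0.10, and for Gnai1 -0.09 and -0.16. Scg2 was called in 29 and Gnai1 in 27 of 30 alternatives. In the 20 fits that each left out 1 library, Pcsk1 and Gnai2 were called in 14, and Foxo1, Scg2 and Gnai1 in all 20.

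In S662D mice 0 of the 45 were called with fasting, and 10 had an unadjusted p under 0.05 by edgeR (22.2%, against 14.3% of all genes). Against fed controls 1 was called (2.22%, against 4.69% of all genes): Ebf2, a transcription factor of orexin neurons, was higher by 0.48 (edgeR adjusted p = 0.0387), a call that held in 7 of 15 fits that each left out 1 library. Against fasted controls 3 were called (6.67%, against 5.57%): Nptx2, a neuronal pentraxin, higher by 0.23 (adjusted p = 0.0391), its relative Nptx1 with a log2 fold change of -0.24 (adjusted p = 0.0222) and Scg2 with -0.19 (adjusted p = 0.0098). Nptx2 was called in 7 of 15 such fits, Scg2 in 14 and Nptx1 in 13. Without the digit libraries Nptx2 was at 0.02, Scg2 at -0.12 and Nptx1 at -0.36. With S662D libraries carrying the digit alone they were at 0.36, -0.24 and -0.16. For the labelled knockout against control 0 of the 45 were called, with 3 at an unadjusted p under 0.05 (6.67%, against 6.07% of all genes). For the difference between the fasting responses 0 were called, with 5 at an unadjusted p under 0.05 (11.1%, against 6.37% of all genes).

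In the labelled knockout against S662D 4 of the 45 were higher and 2 lower, 13.3% of the 45 against 7.34% of all genes, with a median of 0.07 against 0.01 over all genes. Nptx1 was higher by 0.33, Pcsk1 by 0.30, Scg2 by 0.27 and Tac1, the tachykinin precursor, by 0.20 (edgeR adjusted p = 0.0051, 0.0107, 0.0013 and 0.0365). Nptx2 and Gnao1, a subunit of the G protein Go, were at -0.27 and -0.13 (adjusted p = 0.0313 and 0.0408). In fits that each left out 1 of the 10 libraries, Nptx1, Pcsk1 and Scg2 were called in all 10, Tac1 and Nptx2 in 5 and Gnao1 in 2.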

How the data were processed

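The authors deposited raw counts by gene, in a table for each of the 35 libraries. Counting used featureCounts 2.0.1 on GENCODE vM12 (mm10), per the file headers, by gene name and in paired mode, with multi-mapping reads included and without a strand option. STAR 2.7.10b is named in the submitters' processing notes. Groups came from the labels, and no library was left out.

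Genes were filtered with filterByExpr by group (minimum count 10), scaled with TMM and fitted in 1 model with a mean per group in edgeR 4.0.16 (R 4.3.3; glmQLFit, robust, and glmQLFTest), with Benjamini-Hochberg adjustment over 18063 genes. CPM uses TMM-scaled library sizes, and relations used log2 CPM (prior count 2) and 100000 permutations within groups. The common biological coefficient of variation was 0.0900. No 2 libraries held identical values, and within groups chi-square per degree of freedom was at least 2.53 for every pair. The scripts were tested on simulated data. Alternatives were RLE or unscaled libraries, DESeq2 1.42.0, limma-voom 3.58.1, other filters, library sets, a replicate block and leaving out each library.

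The members and lists were chosen with earlier results of these data known. Named are the 6 members, the 5 genes most like each of them by r (of these, 1 is not reported here), and every called gene of the 6 pathway lists. Other lists are given as sums.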

Additional observations from a re-analysis of the deposited data

Results flagged for a closer look

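In 3 of the 30 sets formed by 1 of the 6 genes in 1 group, a single library lay far from the others by Dixon's gap test, and chance gives about 1 in 20. Pmch in labelled Per2 knockout replicate 2 was at 144.1 CPM, and the nearest of the other 4 at 111.2. Hcrtr1 in fed S662D replicate 3 was at 5.58 CPM, and the nearest at 6.91. Qrfp in fasted control replicate 3 was at 0.592 CPM, and the nearest at 1.17.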

How the results depend on the processing

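Of the 42 results for the 6 genes in 7 comparisons, 34 were never called under any of the 20 to 43 alternatives each, and 23 kept their sign in all. No value that was called had the sign opposite to its main fit. However, Hcrtr2 for S662D against control, fasted, was called at -0.38 with controls 1 to 5 and was 0.10 with controls 6 to 10. The number of the 6 genes called moved as follows. For S662D against control, fed, it was 0, but 1 with DESeq2 or limma-voom and 2 with digit libraries alone, and 0 to 2 on leaving out 1 library (2 without fed S662D replicate 1, where 1667 of 18209 genes were called). Fasted, it was 0, but 2 with library size alone, DESeq2 or digit libraries alone, 1 with limma-voom, the 1 CPM filter, controls 1 to 5 or only these groups, and 0 to 2 on leaving out 1 library (above 0 without control replicate 8 or S662D replicates 1 or 5). Over all genes, 1022 of 18063 were called with library size alone, 1044 of 16263 with the 1 CPM filter and 291 of 17392 with only these groups. Leaving out the named libraries gave 809, 1802 and 1590 genes, in that order. For the labelled knockout against S662D it was 2, but 1 with no filter or only these groups, 0 without the digit libraries or with the digit as a term, and 0 to 2 on leaving out 1 library (0 without knockout replicate 2 or S662D replicate 4). Over all genes, 907 of 36082 were called with no filter, 476 of 17218 with only these groups and 42 of 18063 with the digit as a term. Leaving out the named libraries gave 636 and 521 genes, in that order. For fasting in S662D mice it was 0, and 0 to 1 on leaving out 1 library (1 without fasted S662D replicate 1, where 585 of 18213 genes were called).

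Counts over all genes depended on the sets: S662D against control, fed, had 847 genes called, 3106 with and 16 without the digit libraries, and 1741 with controls 1 to 5 against 33 with 6 to 10. Fasted, it had 1007, then 3148, 21, 1680 and 48. The labelled knockout against S662D had 1325, then 2986 and 26, and fasting in controls 701, with 1315 in controls 1 to 5 and 304 in 6 to 10. The causes were not tested. The 15 list gene results kept their sign in all alternatives, and none of the 15 kept its call in all.

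Replicate numbers did not meet the rule for pairing: same-numbered fed and fasted libraries correlated at -0.19 to 0.06 in controls and -0.11 to 0.16 in S662D, and 1 of 5 S662D pairs correlated best with its own number. Fed controls and fed S662D gave -0.05 to 0.24, with 3 of 5 pairs over 0.1 and 3 best with their own number. With the replicate block, 1 gene (Hcrt) was called for S662D against control fed, 1 fasted and 1 for the labelled knockout against S662D.

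Depth limits Qrfp, with 11 to 60 counts per library.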
